A study of Homo sapiens with 6 samples.

Results

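The 10 genes described here encode the enzymes that build fatty acids from acetyl-CoA and then lengthen and desaturate them. They were chosen by gene name (FASN, ACACA, ACACB, ACLY, SCD, ELOVL5, ELOVL6, FADS1, FADS2 and ACSS2), and all 10 were found among the 30676 genes of the deposited table. The samples carry the label HCT116, a human cell line from a colorectal cancer, with a wild-type genotype, and were exposed for 24 hours under 1% oxygen to 10 µM GIA, a genistein isoflavonoid alkaloid, or to DMSO at 0.1%, with 3 libraries in each group. Both groups were under low oxygen, and no normoxic group was analysed here. The labels state the DMSO percentage only for the controls. They do not say whether separate cultures were used for the 3 libraries of each group, so the p-values measure the spread between these libraries, which may be technical.

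Fatty acid synthesis starts in the cytosol, where ACLY splits citrate and ACSS2 activates acetate, both yielding acetyl-CoA. The acetyl-CoA carboxylases ACACA and ACACB make malonyl-CoA from it, and FASN joins these units into palmitate. ELOVL6 and ELOVL5 belong to the family that adds carbon pairs in the endoplasmic reticulum, and SCD, FADS1 and FADS2 insert double bonds in a reaction that consumes molecular oxygen. SREBP transcription factors are the classical activators of these genes, and acetate use through ACSS2 is known from tumour cells short of oxygen.

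The libraries held 64804849 to 67835059 estimated counts with GIA and 55725249 to 63542466 with DMSO, so each GIA library was larger. The labelled cell type was checked against its markers. The keratins KRT8, KRT18 and KRT19 were at a mean of 144, 249 and 27.2 FPKM with GIA and 148, 262 and 28.1 with DMSO (the authors' fragment values scaled to gene length and library size). The other 3 epithelial markers present, EPCAM, CDH1 and VIL1, were under 0.5 FPKM in every library, which goes against an epithelial colorectal line. Of the fibroblast markers, DCN, COL1A1 and PDGFRB averaged 13.5, 2.72 and 4.46 FPKM with GIA and 12.15, 2.32 and 3.98 with DMSO, while COL3A1 was under 0.5. For COL1A1 every GIA library was above every DMSO library, which held for 5.63% of all tested genes. The gap was narrow, from 2.376 FPKM in DMSO library 3 to 2.378 in GIA library 1 (edgeR adjusted p = 0.875). The groups overlapped for DCN and PDGFRB. The 4 fibroblast markers summed to 17.7 to 24.6 FPKM with GIA and 17.6 to 18.9 with DMSO. Leukocyte, endothelial and adipocyte markers (3 of each in the table) summed to at most 0.213 FPKM in any library. The libraries are therefore called by their labels only, and the part of these markers in the results was not tested.

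Promoter sequences are shown for the 5 enzymes whose differences between libraries or between partners are described most closely. SCD and ACSS2 had their highest value in GIA library 2 and ELOVL6 its lowest, and FADS1 and FADS2 are neighbours read from opposite strands. The sequences are RefSeq windows on GRCh38.p14, 300 bases long and reaching from upstream of a transcript start to just past it, read 5′ to 3′ on the strand of the gene. Capitals mark the matches described after them. The SCD window is chr10:100346983-100347282 on the plus strand, ACSS2 chr20:34874739-34875038 on the plus strand, ELOVL6 chr4:110198566-110198865 on the minus strand, FADS1 chr11:61816954-61817253 on the minus strand and FADS2 chr11:61815953-61816252 on the plus strand. For ACSS2 and FADS2, each with a pair of windows in the table, the one listed first is shown.
SCD: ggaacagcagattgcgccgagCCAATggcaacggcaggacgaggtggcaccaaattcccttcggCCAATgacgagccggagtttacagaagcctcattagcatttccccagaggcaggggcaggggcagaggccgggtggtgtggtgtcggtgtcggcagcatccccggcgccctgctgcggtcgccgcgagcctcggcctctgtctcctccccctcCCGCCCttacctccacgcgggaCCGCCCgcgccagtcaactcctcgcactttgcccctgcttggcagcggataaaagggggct
ACSS2: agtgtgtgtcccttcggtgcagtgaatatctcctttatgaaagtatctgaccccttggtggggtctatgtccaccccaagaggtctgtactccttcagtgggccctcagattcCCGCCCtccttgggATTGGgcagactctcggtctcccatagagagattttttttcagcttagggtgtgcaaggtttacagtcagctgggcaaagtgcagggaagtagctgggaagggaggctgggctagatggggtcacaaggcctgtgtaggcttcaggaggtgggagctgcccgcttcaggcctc
ELOVL6: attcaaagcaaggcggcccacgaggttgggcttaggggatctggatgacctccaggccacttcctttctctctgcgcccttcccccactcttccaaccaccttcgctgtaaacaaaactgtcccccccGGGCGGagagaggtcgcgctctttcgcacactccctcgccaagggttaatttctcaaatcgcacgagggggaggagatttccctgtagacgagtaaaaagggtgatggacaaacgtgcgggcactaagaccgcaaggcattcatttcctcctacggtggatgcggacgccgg
FADS1: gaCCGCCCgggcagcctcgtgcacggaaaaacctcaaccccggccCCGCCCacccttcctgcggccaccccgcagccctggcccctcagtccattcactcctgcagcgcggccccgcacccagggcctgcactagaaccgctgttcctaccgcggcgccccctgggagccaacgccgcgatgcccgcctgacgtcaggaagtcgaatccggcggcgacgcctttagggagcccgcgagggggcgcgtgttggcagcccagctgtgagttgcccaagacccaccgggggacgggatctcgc
FADS2: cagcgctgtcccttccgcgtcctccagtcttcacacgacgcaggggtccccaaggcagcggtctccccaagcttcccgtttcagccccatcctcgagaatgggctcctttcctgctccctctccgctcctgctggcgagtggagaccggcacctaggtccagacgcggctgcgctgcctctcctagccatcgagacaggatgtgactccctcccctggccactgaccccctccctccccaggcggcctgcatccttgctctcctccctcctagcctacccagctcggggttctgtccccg

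Of the 10 enzymes, 9 matched a RefSeq window, with FASN unmatched, and 4 motifs were searched on both strands. They were the sterol regulatory element TCACNCCAC, the E-box CACGTG, the CCAAT box CCAAT and the GC box GGGCGG, and none of these spellings lies within another. The first windows of 4 of the 9 enzymes held a CCAAT box, against 34.6% of all 35116 windows, and those of 6 held a GC box, against 45% of all windows. The E-box was in 1 of the 9, ELOVL5, against 7.26% of all windows. The sterol element spelling was in 0 of the 9, against 1.13%. It is rare and was the only spelling searched, so its absence does not show that sterol elements were lacking. The shares cover every window of each gene, not first windows only. Over all 15 windows of the 9 enzymes, 9 held a CCAAT box and 11 a GC box. The E-box was in 1 of the 15 and the sterol spelling in 0. In SCD the CCAAT boxes started at -229 and -186 relative to the transcript start, and the GC boxes at -33 and -11. The ACSS2 window shown held 1 CCAAT box and 1 GC box, and its other window 0 CCAAT boxes and 3 GC boxes. ELOVL6 held a single GC box and FADS1 2 GC boxes. The FADS2 window shown held no match, and its other window 1 CCAAT box and 1 GC box. These matches are descriptions of the letters and say nothing of which factor binds. The RefSeq starts of the FADS1 and FADS2 windows shown lie 800 bases apart, at 61817003 and 61816203, and reading from them runs toward each other. The other FADS2 window starts its transcript at 61816404. Further starts of these genes were not examined, so this does not give the arrangement of their main transcripts.

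The enzymes spanned a wide range of levels, in an order that was nearly the same in each library. SCD, the stearoyl-CoA desaturase that makes oleate, led with a mean of 208.5 FPKM over the 6 libraries, and its lowest library was above the highest of every other enzyme. ACLY followed at 90.1 and FASN at 88.0 FPKM. These neighbours were not separated: their ranges overlapped, and ACLY was above FASN in 5 of 6 libraries. ELOVL5 (64.1 FPKM), FADS1 (22.8) and ACACA (12.4) came next, each outside the range of its neighbours. ACSS2 (7.02) and ELOVL6 (6.22) overlapped, with ACSS2 higher in 4 of 6 libraries. FADS2 stood at 3.47 and ACACB, at the bottom, at 0.778 FPKM. Together the 10 enzymes made up 0.192% to 0.205% of all FPKM in the GIA libraries and 0.189% to 0.195% in the DMSO libraries. SCD alone held 41.0% to 44.2% of their sum with GIA and 40.2% to 40.7% with DMSO.

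**Figure D1:**
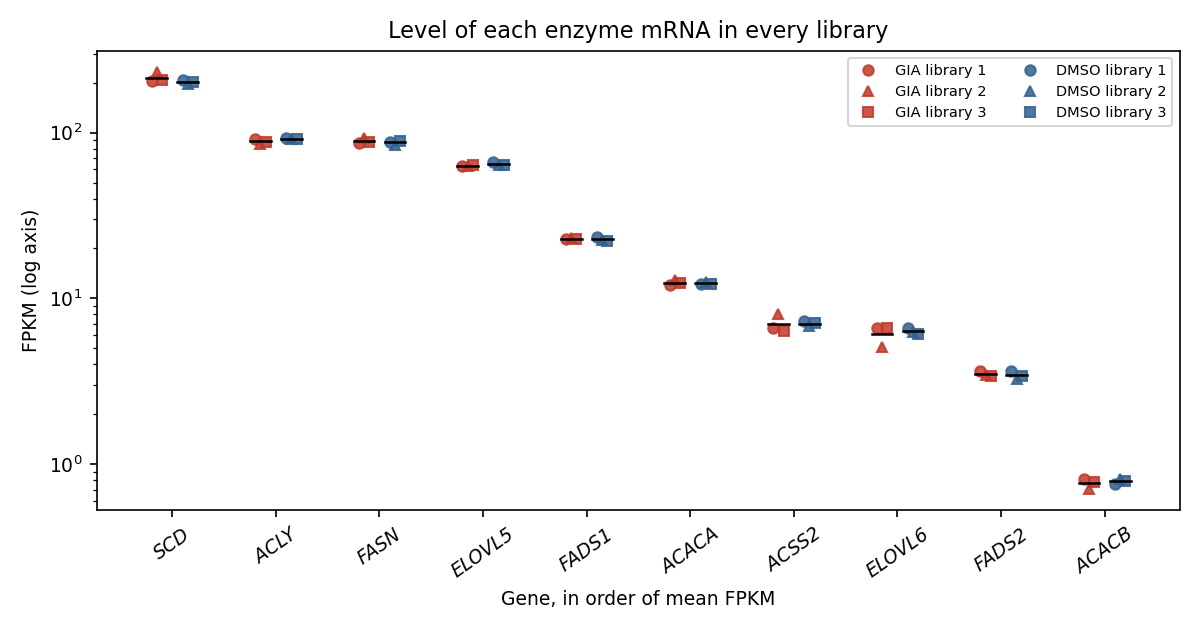
FPKM of each enzyme mRNA (y axis, logarithmic) in every library, with genes in order of their mean and GIA left of DMSO for each gene. Points are single libraries and black bars group means. The groups overlap for each gene, and SCD at 208.5 and ACACB at 0.778 FPKM mark the ends of the range.

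No enzyme of the group passed the test between GIA and DMSO. Of the 10, 0 were called by the quasi-likelihood test of edgeR at an adjusted p under 0.05, and 0 of the 13721 genes tested were called (0%). All 10 passed the filter on low values, a mean of at least 0.5 FPKM. At an unadjusted p under 0.05 there were 0 of the 10 enzymes, against 4.59% of all tested genes, and DESeq2 and limma also called 0 genes, with 651 and 670 genes at an unadjusted p under 0.05. With GIA library 1 left out, SCD had an edgeR p of 0.0228 unadjusted and 0.469 adjusted, and ACLY an edgeR p of 0.0402 unadjusted and 0.473 adjusted. Under 0.05 before adjustment there were then 2 of the 10 enzymes and 1407 genes in all, against 630 genes with all libraries. Without DMSO library 2 there were 406 such genes and 0 enzymes. The values of the groups overlapped for all 10, whereas 11.2% of tested genes had groups that did not overlap (5.63% with all GIA libraries above and 5.6% with all below). Fold changes are log2, GIA over DMSO. They ran from -0.061 for ELOVL6 to 0.089 for SCD, 5 positive and 5 negative, with a median of -0.0028, against 0.0004 for all tested genes. The 95% intervals of all 10 lay within 1.5-fold either way, which held for 83.0% of all tested genes. In bulk samples like these, fewer cells of a type and less RNA per cell cannot be told apart.

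Among the suppliers of acetyl-CoA, ACLY (ATP citrate lyase, chromosome 17, 41866917 to 41930542, GRCh38 per the submitters' processing notes) had 91.6, 85.5 and 88.4 FPKM in GIA libraries 1 to 3, against 92.3, 91.5 and 91.0 FPKM in DMSO libraries 1 to 3. GIA libraries 2 and 3 were below all DMSO libraries, and GIA library 1 lay among them. Its log2 fold change was -0.051 (SE 0.034, 95% bounds -0.13 and 0.027, edgeR adjusted p = 0.875), and -0.023 without GIA library 2. ACSS2, the acetyl-CoA synthetase of cytosol and nucleus (chromosome 20, 34872146 to 34927962), had 6.595, 8.028 and 6.370 FPKM in the GIA libraries and 7.271, 6.765 and 7.112 in the DMSO libraries. GIA library 2 was the highest of the 6, and the other 2 GIA libraries were the lowest. The log2 fold change of -0.013 (SE 0.083, 95% bounds -0.20 and 0.17, edgeR adjusted p = 0.985) took values from -0.12 without GIA library 2 to 0.047 without GIA library 3. It was also positive without GIA library 1 (0.025) and without DMSO library 1 (0.0095). The ACSS2 gene model shares 711 bases with GGT7 on the other strand, which had a mean of 4.38 FPKM.

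For the carboxylases and the synthase the GIA and DMSO libraries overlapped. ACACA, the carboxylase that serves synthesis in the cytosol (chromosome 17, 37084992 to 37406836), had 12.10, 12.87 and 12.30 FPKM with GIA, against 12.25, 12.57 and 12.21 with DMSO. The groups overlapped throughout, with a log2 fold change of 0.0073 (SE 0.035, 95% bounds -0.073 and 0.087). Leaving out GIA library 2 gave -0.014, and leaving out DMSO library 3 gave -0.0017. ACACB, the mitochondrial-membrane isozyme whose malonyl-CoA restrains fatty acid oxidation (chromosome 12, 109116595 to 109268226), had 0.816, 0.704 and 0.784 FPKM with GIA and 0.758, 0.811 and 0.793 with DMSO. GIA held both its highest and its lowest library. The log2 fold change was -0.037 (SE 0.093, 95% bounds -0.25 and 0.17), and 0.025 without GIA library 2. FASN, the multidomain synthase (chromosome 17, 82078338 to 82098294), had 86.3, 92.7 and 87.3 FPKM with GIA, against 88.3, 84.8 and 88.6 with DMSO. Apart from GIA library 2, all libraries lay within 84.8 to 88.6 FPKM. Its log2 fold change was 0.023 (SE 0.033, 95% bounds -0.051 and 0.097), and -0.0052 without GIA library 2. The edgeR adjusted p was 0.982 for ACACA, 0.956 for ACACB and 0.919 for FASN.

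The elongases differed in how much their libraries scattered. ELOVL5, which lengthens polyunsaturated chains (chromosome 6, 53267398 to 53349179), had 63.1, 62.8 and 64.0 FPKM with GIA and 66.8, 63.6 and 64.1 with DMSO. DMSO library 1 stood above the other 5, which lay within 62.8 to 64.1 FPKM. The log2 fold change was -0.036 (SE 0.033, 95% bounds -0.11 and 0.038, edgeR adjusted p = 0.881). ELOVL6, which lengthens palmitate to stearate (chromosome 4, 110045846 to 110198653), had 6.597, 5.081 and 6.590 FPKM with GIA, against 6.645, 6.295 and 6.109 with DMSO. GIA library 2 was below the other 5 libraries, at 80.0% of the DMSO mean, while GIA libraries 1 and 3 were at 104%. The log2 fold change was -0.061 (SE 0.097, 95% bounds -0.28 and 0.16, edgeR adjusted p = 0.926), and 0.057 without GIA library 2. With that library left out, ELOVL6 thus lay on the other side of 0.

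Among the desaturases, SCD (chromosome 10, 100347233 to 100364826) had the largest fold change and the smallest unadjusted p of the 10 enzymes. It had 204.0, 233.5 and 208.0 FPKM in the GIA libraries (mean 215 ± 16.0 SD, n = 3), against 206.8, 196.2 and 202.7 FPKM in the DMSO libraries (202 ± 5.34 SD, n = 3). GIA libraries 2 and 3 were above all DMSO libraries, and GIA library 1 was below DMSO library 1. The log2 fold change was 0.089 (SE 0.046, 95% bounds -0.015 and 0.19), with an edgeR p of 0.0842 unadjusted and 0.875 adjusted. Without GIA library 2 it was 0.031, and without any other single library at least 0.070. SCDP1, a pseudogene copy of SCD, was listed at 0.185 to 0.491 FPKM, against at least 196.2 FPKM for SCD.

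FADS1, the delta-5 desaturase (chromosome 11, 61799627 to 61829318), had 22.87, 23.03 and 22.88 FPKM with GIA, against 23.45, 22.63 and 22.08 with DMSO. The 3 GIA libraries lay inside the range of the DMSO libraries. The log2 fold change was 0.011 (SE 0.034, 95% bounds -0.065 and 0.087, edgeR adjusted p = 0.963), and -0.0100 without DMSO library 3. FADS2, the delta-6 desaturase (chromosome 11, 61792980 to 61867354), had 3.665, 3.431 and 3.416 FPKM with GIA and 3.626, 3.241 and 3.412 with DMSO. All 3 GIA libraries were above DMSO library 2 and none stood apart. Its log2 fold change of 0.031 (SE 0.059, 95% bounds -0.10 and 0.16, edgeR adjusted p = 0.938) became -0.0058 when GIA library 1 was left out and -0.0066 when DMSO library 2 was. The FADS2 gene model of the table covers the whole FADS1 model, 29692 bases, on the opposite strand, and also 4259 bases of FEN1 (66.6 FPKM) on its own strand. The libraries are labelled strand-specific, but no source used here states whether the counting used the strand, so the split of reads between these models is uncertain.

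**Figure D2:**
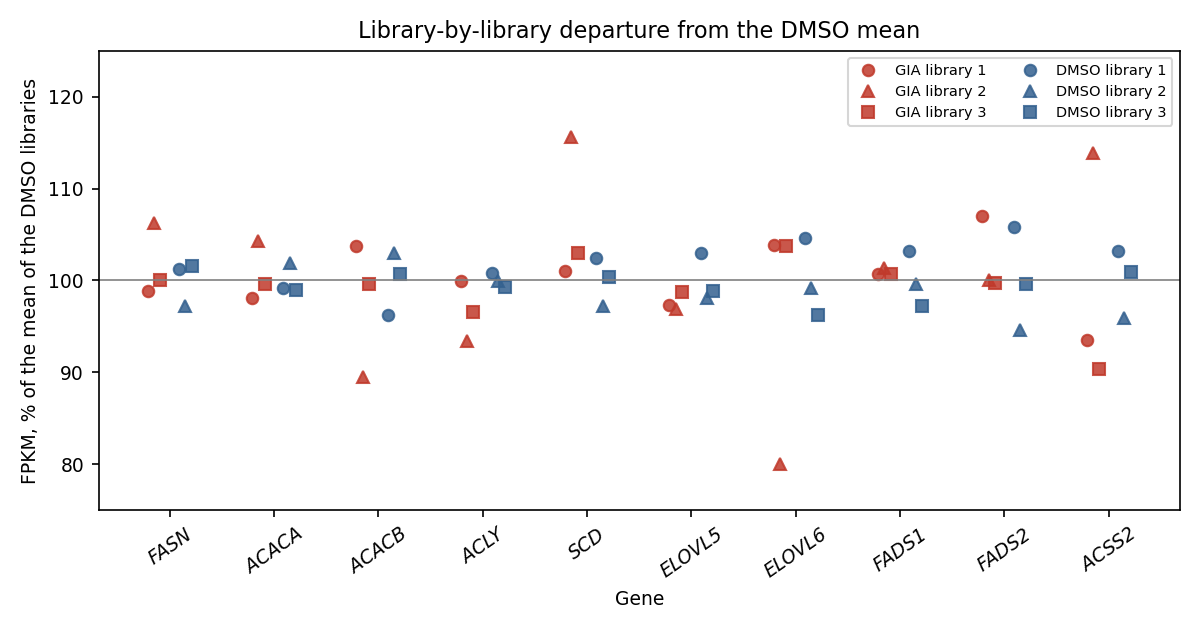
FPKM of each enzyme in every library as a percent of the mean of the 3 DMSO libraries (y axis), GIA in red and left of DMSO in blue. Each point is 1 library. GIA library 2 (red triangle) is at 116% for SCD, 114% for ACSS2 and 80.0% for ELOVL6, and the other libraries lie between 90.4% for ACSS2 and 107% for FADS2.

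GIA library 2 departed from the other libraries more often than any other single library, in both directions. It was the highest of the 6 for SCD, ACSS2, FASN and ACACA and the lowest for ELOVL6, ACACB, ACLY and ELOVL5, so that it held an extreme for 8 of the 10 enzymes. The other libraries held an extreme for 1 to 4. Over all tested genes, GIA library 2 held an extreme for 53.5% and the other libraries for 23.6% to 33.9%, so it also stood apart outside this pathway. Against the mean of the other 5 libraries, GIA library 2 was 0.20 higher in log2 FPKM for SCD, 0.24 higher for ACSS2 and 0.091 higher for FASN. It differed by -0.34 for ELOVL6, -0.17 for ACACB and -0.089 for ACLY. The median absolute departure of GIA library 2 was 0.0897 over the 10 enzymes and 0.109 over 13669 genes with a value above 0 in every library. The fibroblast marker sum was also highest in this library, and KRT18 and KRT8 were lowest there, at 219 and 134 FPKM. KRT19 was not: it had 27.7 FPKM in GIA library 2, within its range of 26.15 to 29.88 FPKM. The part of the library in these departures was not tested.

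The spread between libraries was set beside the error expected from counting alone, assuming that 1 fragment was worth 4 estimated counts. Estimated counts of 1 and 2 also occur, so the assumption does not hold for every gene. The counting errors would be smaller if a fragment was worth fewer counts. For ACACB, with 673 to 884 estimated counts a library, the coefficient of variation within groups was 5.84%, against 7.18% from counting. For FADS2 it was 4.88%, against 4.0%, and for ACACA 2.55%, against 1.90%. SCD, with 64007 to 90819 estimated counts, had 5.57%, against 0.733% from counting. ELOVL6 had 10.6%, against 3.60%, and ACSS2 9.45%, against 3.99%. For these last 3 enzymes, as for FASN, ACACA, ACACB and ACLY, the scatter was greater in the GIA group: the coefficient of variation was 7.43% with GIA and 2.64% with DMSO for SCD, 14.3% and 4.28% for ELOVL6, and 12.9% and 3.68% for ACSS2. It was smaller in the GIA group for ELOVL5 (0.934% with GIA and 2.65% with DMSO), FADS1 (0.382% and 3.04%) and FADS2 (3.99% and 5.62%). These differences in scatter rest on 3 libraries a group and were not tested.

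The enzymes were also compared by the root mean square difference of their log2 FPKM, each centred on its mean over the 6 libraries. The values were not scaled, so a pair of genes that vary little gets a low value whatever their pattern. The closest pair was ELOVL5 and FADS1 (0.0293), followed by ACLY and ELOVL5 (0.0336) and FASN and ACACA (0.0353). ELOVL5 and FADS1 also had the lowest coefficients of variation within groups, 1.98% and 2.16%. In GIA library 2 they departed from the other libraries in opposite directions, by -0.033 and 0.016. The farthest pair was ELOVL6 and ACSS2 (0.233), and SCD and ELOVL6 came next (0.204). FADS1 and FADS2, the overlapping neighbours, were at 0.0513. These values describe the same 6 libraries.

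Ratios within a library do not depend on its scaling, and 4 were compared between GIA and DMSO by an exact permutation test, two-sided, with p-values adjusted over the 4. With 3 libraries a group the smallest possible p is 0.1. The ratio of ACACB to ACACA was 0.0674, 0.0547 and 0.0637 in the GIA libraries, against 0.0619, 0.0645 and 0.0650 in the DMSO libraries. The groups overlapped, with a log2 difference of -0.047 (exact permutation p = 0.8, adjusted p = 1). FADS1 was 6.24, 6.71 and 6.70 times FADS2 with GIA, against 6.47, 6.98 and 6.47 times with DMSO, a log2 difference of -0.019 (exact permutation p = 0.7, adjusted p = 1).

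The ratio of ELOVL6 to ELOVL5 was 0.105, 0.0809 and 0.103 with GIA, against 0.0995, 0.0990 and 0.0953 with DMSO. GIA library 2 was lowest and the other 2 GIA libraries were highest, and the log2 difference was -0.036 (exact permutation p = 1, adjusted p = 1). Without GIA library 2 it was 0.084, with exact permutation p = 0.1, the smallest that 2 against 3 libraries can give. The ratio of ACSS2 to ACLY was 0.0720, 0.0939 and 0.0720 with GIA, against 0.0788, 0.0739 and 0.0782 with DMSO. Its log2 difference was 0.032 (exact permutation p = 1, adjusted p = 1), and -0.095 without GIA library 2. For ACACB to ACACA the difference was 0.040 without GIA library 2. The FADS1 to FADS2 difference became 0.015 when GIA library 1 was left out and 0.017 when DMSO library 2 was.

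**Figure D3:**
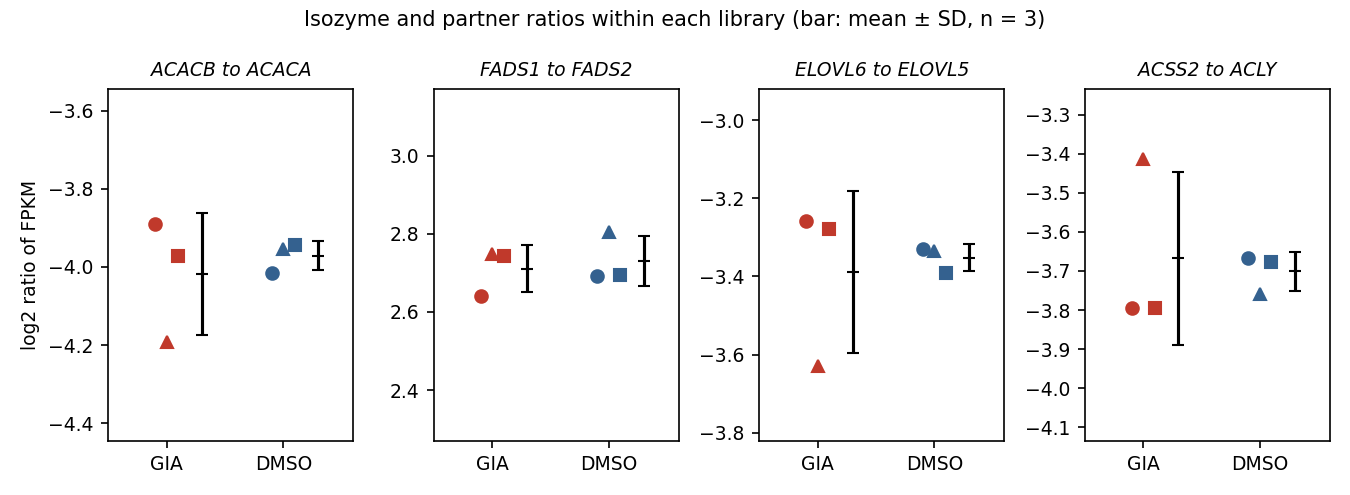
Log2 ratio of FPKM within each library (y axis) for 4 enzyme pairs, GIA left of DMSO. Circles, triangles and squares are libraries 1, 2 and 3, and bars the mean ± SD (n = 3). GIA library 1 lies outside the range of the DMSO libraries in all 4 panels, library 2 in 3 and library 3 in 2, and library 2 lies farthest from them in those 3, with ratios of 0.0547, 0.0809 and 0.0939.

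Around the 10 enzymes, 83 other genes of fatty acid metabolism were listed, of which 81 were in the table and 67 were tested. Of these, 0 rose or fell by edgeR's test, and 4 had an unadjusted p under 0.05 (5.97%, against 4.59% of all tested genes). Leaving out GIA library 1 made that count 9, leaving out DMSO library 1 made it 2, and it was 1 when either GIA library 3 or DMSO library 2 was dropped. Fold changes were positive for 34 and negative for 33, with a median of 0.0001. The groups did not overlap for 11 of the 67, with GIA above for 6 and below for 5, against 11.2% of all tested genes (5.63% above and 5.6% below). Among 13 tested genes of transcriptional and enzyme control the median was 0.028, with 8 positive. SREBF1, which encodes the SREBP of fatty acid synthesis, had 22.1, 27.3 and 22.9 FPKM with GIA and 22.3, 21.1 and 23.5 with DMSO. Its log2 fold change was 0.11 (SE 0.073), and 0.015 without GIA library 2, which was also the highest library here. SREBF2, the SREBP of cholesterol synthesis, had 0.034 (SE 0.036), and 0.0018 without GIA library 2. The SREBP escort SCAP had 0.061 (SE 0.042), with 0.031 when DMSO library 1 was left out and 0.094 when DMSO library 3 was. The retention factor INSIG1 had 0.028 (SE 0.054), with -0.018 when DMSO library 2 was left out and 0.087 when DMSO library 1 was. MLXIPL, a carbohydrate-responsive activator of lipogenic genes, had 0.979, 0.975 and 1.07 FPKM with GIA, against 0.681, 0.841 and 0.966 with DMSO. Every GIA library was above every DMSO library, but narrowly, from 0.966 FPKM in DMSO library 3 to 0.975 in GIA library 2. The log2 fold change was 0.28 (SE 0.16, edgeR adjusted p = 0.875), and 0.15 without DMSO library 1. MID1IP1, a binding partner of the carboxylases, had -0.019 (SE 0.044).

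The 10 genes of citrate and NADPH supply split into 5 positive and 5 negative fold changes. The cytosolic isocitrate dehydrogenase IDH1 had 0.054 (SE 0.034), and 0.032 without DMSO library 2. Every GIA library was above every DMSO library, but narrowly, from 47.42 FPKM in DMSO library 1 to 47.62 in GIA library 3. The citrate carrier SLC25A1 had 0.029 (SE 0.050), and -0.025 without GIA library 2. Malic enzyme ME1 had -0.0052 (SE 0.063), but 0.0035 among genes with a mean of at least 5 FPKM. Among 11 tested partners of elongation and desaturation, 7 were positive. The ketoacyl-CoA reductase HSD17B12 had 0.071 (SE 0.038), and 0.046 without GIA library 3. Its groups did not overlap, again with a narrow gap, from 11.02 FPKM in DMSO library 2 to 11.07 in GIA library 1. The dehydratase HACD3 had 0.0023 (SE 0.036) and the enoyl reductase TECR 0.0073 (SE 0.035). The elongase ELOVL1 had 0.0096 (SE 0.041), FADS3 -0.037 (SE 0.078) and CYB5B, a cytochrome b5, -0.0024 (SE 0.036), which was 0.0004 when scaled by library totals. ACSS1, ELOVL7 and CYB5A were under 0.5 FPKM in every library and were not tested, and no gene named SCD5 was among the deposited genes.

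Among 12 tested genes of activation, esterification and lipid droplets, 7 were positive. GPAM, the first acyltransferase of glycerolipid synthesis, had 2.67, 2.60 and 2.55 FPKM with GIA, against 2.94, 2.80 and 2.86 with DMSO. Every GIA library was below every DMSO library, and the log2 fold change was -0.14 (SE 0.057), with an edgeR p of 0.0377 unadjusted and 0.875 adjusted. The other 3 genes with an unadjusted p under 0.05, named after their values were seen, were CPT1B, LPIN1 and ACADVL. CPT1B, a carnitine palmitoyltransferase, had 1.042, 0.8641 and 0.7622 FPKM with GIA, against 1.249, 1.171 and 1.330 with DMSO, all GIA libraries being below. Its log2 fold change was -0.49 (SE 0.16), with an edgeR p of 0.0111 unadjusted and 0.875 adjusted. LPIN1, a phosphatidate phosphatase, had -0.098 (SE 0.040) with groups that did not overlap. ACADVL, the very-long-chain acyl-CoA dehydrogenase, had 0.11 (SE 0.043), and its groups overlapped. ACSL3 had -0.026 (SE 0.034; -0.013 without GIA library 1 and -0.043 without GIA library 2), DGAT1 0.034 (SE 0.065) and the hypoxia-inducible droplet protein HILPDA -0.037 (SE 0.065). PLIN2, a droplet coat protein, was under 0.5 FPKM in every library. The 6 genes of mitochondrial fatty acid synthesis had 2 positive fold changes, and the 15 of fatty acid oxidation 5, with medians of -0.041 and -0.024. CPT1A, the gate of oxidation that malonyl-CoA inhibits, had -0.027 (SE 0.044). Of the 20 genes named by rule and reported here, 12 changed sign without at least 1 library, the number per library being 2 to 5.

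**Figure D4:**
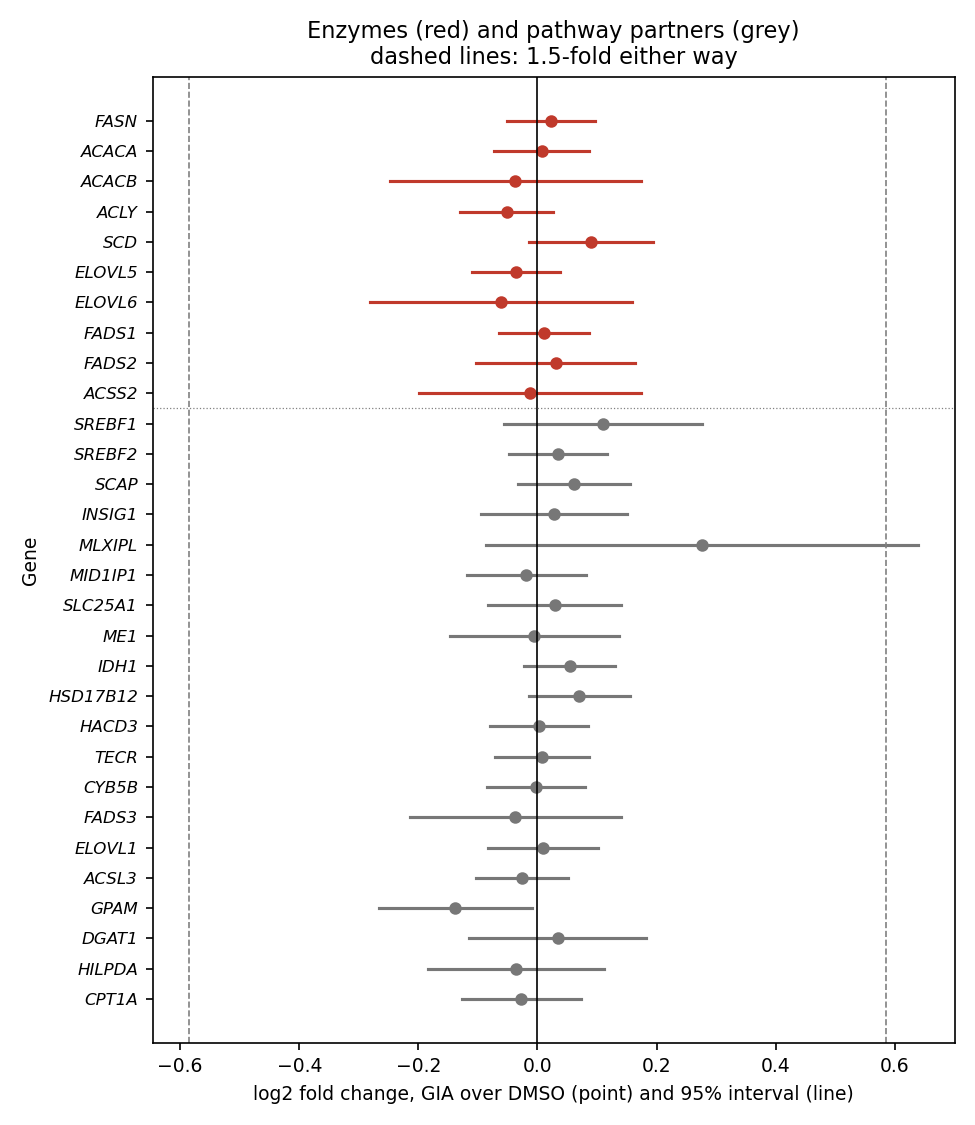
Log2 fold change, GIA over DMSO (x axis, points), with its 95% interval (lines) for the 10 enzymes in red and 20 named genes around them in grey. Dashed lines mark 1.5-fold either way. All 10 enzyme intervals include 0 and stay inside the dashed lines. Of the genes shown, GPAM, at -0.14, is the 1 whose interval leaves out 0.

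**Figure D5:**
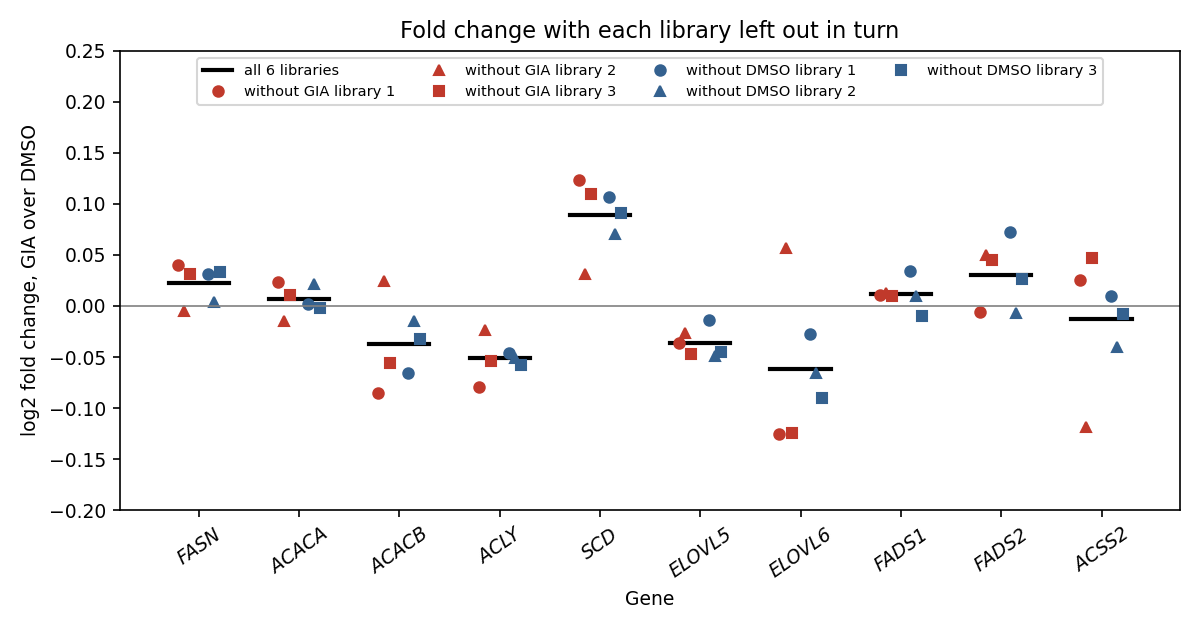
Log2 fold change of each enzyme, GIA over DMSO (y axis), with all 6 libraries (black bar) and with each library left out in turn (points, GIA libraries in red and DMSO libraries in blue). The points for SCD run from 0.031 to 0.12 and those for ACLY from -0.080 to -0.023, without crossing 0, whereas those for ELOVL6 run from -0.13 to 0.057.

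Leaving out single libraries left 0 enzymes called in each of the 6 cases. The sign of the fold change held in all 6 cases for SCD, ACLY and ELOVL5 and changed in at least 1 case for the other 7 enzymes.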

How the data were processed

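RNA-seq of 3 GIA and 3 DMSO libraries of cells labelled HCT116 was analysed from 1 table. HISAT2 2.2.1, StringTie 2.1.6, DESeq2 1.22.2, cutadapt and FastQC 0.10.1 are named, without roles, in the submitters' processing notes, as are GRCh38 and hg38. Per the file headers, the authors deposited a count and an FPKM for each gene and library. The deposited counts were treated as estimated counts, since low values pile up at 4 (6798 values, against 4183 at 3 and 2499 at 5). Values of 1 (6528) and 2 (5410) were also frequent. The counts were already whole, so rounding them changed nothing. Titles and library names matched columns to samples.

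Genes averaging 0.5 FPKM or more, 13721 in all, were fitted with edgeR 4.0.16 in R 4.3.3 (quasi-likelihood test, two-sided, TMM, no covariate, Benjamini-Hochberg threshold 0.05). Standard errors were derived from the fold changes and F statistics. Alternatives used DESeq2 1.42.0, limma 3.58.1 and other filters and scalings. Named genes were the 10 enzymes and 26 others fixed irrespective of how they moved, of which 21 were tested and 1 is not reported here. Members and lists were chosen with earlier results of these data known. Same-numbered libraries deviated together only weakly (correlations 0.0519, 0.0334 and 0.0966, against -0.086 to 0.0349 for the other pairings). The labels do not state pairs, so the numbers were not taken as pairs. Intervals from counting cover counting error only.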

Additional observations from a re-analysis of the deposited data

How the results depend on the processing

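No alternative called any of the 10 enzymes or of the 67 other pathway genes. The 10 alternatives that kept all libraries gave the same sign for each enzyme that they tested (98 values), as did the 3 alternatives for the ratios (12 values), and a mean FPKM of at least 5 left out ACACB and FADS2. Leaving out each library in turn gave log2 fold changes of -0.0052 to 0.040 for FASN, -0.014 to 0.023 for ACACA, -0.085 to 0.025 for ACACB, -0.080 to -0.023 for ACLY, 0.031 to 0.12 for SCD, -0.049 to -0.014 for ELOVL5, -0.13 to 0.057 for ELOVL6, -0.0100 to 0.035 for FADS1, -0.0066 to 0.072 for FADS2 and -0.12 to 0.047 for ACSS2. The log2 ratio differences ran from -0.11 to 0.040 for ACACB to ACACA, -0.038 to 0.017 for FADS1 to FADS2, -0.10 to 0.084 for ELOVL6 to ELOVL5 and -0.095 to 0.096 for ACSS2 to ACLY. Over all genes, edgeR called 5 genes without GIA library 3, 2 each without DMSO libraries 2 and 3, 1 without GIA library 1 and 0 without the other 2 libraries, and the cause was not tested.

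With the replicate number as a block, edgeR called 3 genes (1 higher, 2 lower), none an enzyme of the group, against 0 without it. The block gave 0.088 for SCD and -0.071 for ELOVL6. The numbers only name the libraries. Each GIA library correlated best with the DMSO library of its number (0.0519, 0.0334 and 0.0966), though weakly. DMSO library 2 correlated about equally with GIA library 1 (0.0349) and GIA library 2 (0.0334). Estimated counts divided by 4, an alternative chosen after seeing the data, gave 0.090 for SCD and called 0 genes.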
